A study of Mus musculus with 12 samples.

Results

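The 9 adipogenic transcription factors described here are Pparg, Cebpa, Cebpb, Cebpd, Klf15, Ebf1, Ebf2, Zfp423 and Rxra, taken by gene symbol from the 20632 genes counted in each of 12 libraries. All 9 passed the filter on low counts, which left 12175 genes. The libraries hold 3' RNA sequencing reads of gonadal white fat from mice at E17.5 of pregnancy, and each library was taken as 1 replicate. There were 4 libraries in each of 3 groups. KO Treg and KO vehicle carried Foxn1-Cre and the Tnfrsf11a (Rank) knockout, and received the treatment labelled Treg or vehicle. WT vehicle lacked Cre and received vehicle. Foxn1 drives expression in thymic epithelium, so fat is not the tissue in which this Cre is known to act. The labels give no age, strain, dose or route. Each level below is in CPM, counts scaled by TMM to a common library total.

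Adipocyte identity is built by a cascade of transcription factors. C/EBPβ and C/EBPδ act early and switch on PPARγ and C/EBPα, which then maintain each other and turn on the genes of lipid storage. PPARγ is a nuclear receptor that binds DNA as a pair with a retinoid X receptor such as RXRα. The zinc finger protein Zfp423 and the early B cell factors Ebf1 and Ebf2 act in committed precursors as well as in fat cells, and Klf15 is a Krüppel-like factor of mature adipocytes that is also induced by glucocorticoids.

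On the mm10 build, Pparg lies on chromosome 6 from 115360951 to 115490399 and Klf15 on the same chromosome from 90462576 to 90475238. Cebpa is on chromosome 7 (35119293 to 35121928), Cebpb on chromosome 2 (167688915 to 167690418) and Cebpd on chromosome 16 (15887286 to 15891031). Ebf1 is on chromosome 11 (44617317 to 45008091), Ebf2 on chromosome 14 (67233292 to 67430918), Zfp423 on chromosome 8 (87661810 to 87959595) and Rxra on chromosome 2 (27676440 to 27762957). All 9 encode proteins. Exons of Cebpa overlap Gm45091 on the opposite strand, and those of Cebpb, Cebpd and Ebf2 overlap Tmem189, Spidr and Gm10860. The sources used here do not give the strand setting of the counting, so reads of such pairs cannot be told apart.

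RefSeq promoter windows (GRCm38.p6, 250 bases before to 50 after a start) were found for 7 of the 9 genes, 12 windows in all. Of these, 3 are printed: that of Klf15, the gene with the largest difference between KO vehicle and WT vehicle, that of the upstream start of Zfp423, the gene with the largest difference in the other direction, and the most downstream of 3 windows of Pparg. Capitals mark CACGTG, the E-box bound by circadian clock factors, in the Klf15 window, and TTGCNNAA on either strand, a C/EBP motif, in the others.
Klf15, chr6:90462326-90462625, plus strand: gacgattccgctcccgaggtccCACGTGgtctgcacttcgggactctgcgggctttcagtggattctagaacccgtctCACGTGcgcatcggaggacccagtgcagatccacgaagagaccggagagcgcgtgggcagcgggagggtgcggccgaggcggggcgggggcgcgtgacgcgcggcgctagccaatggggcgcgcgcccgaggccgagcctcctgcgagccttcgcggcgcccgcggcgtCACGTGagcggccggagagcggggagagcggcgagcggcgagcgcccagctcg
Zfp423, chr8:87959546-87959845, minus strand: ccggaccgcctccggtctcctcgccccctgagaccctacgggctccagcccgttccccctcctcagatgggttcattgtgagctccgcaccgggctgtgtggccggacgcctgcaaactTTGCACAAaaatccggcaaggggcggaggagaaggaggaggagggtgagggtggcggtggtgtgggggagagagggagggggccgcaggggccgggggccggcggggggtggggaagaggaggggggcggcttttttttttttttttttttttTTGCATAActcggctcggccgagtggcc
Pparg, chr6:115421816-115422115, plus strand: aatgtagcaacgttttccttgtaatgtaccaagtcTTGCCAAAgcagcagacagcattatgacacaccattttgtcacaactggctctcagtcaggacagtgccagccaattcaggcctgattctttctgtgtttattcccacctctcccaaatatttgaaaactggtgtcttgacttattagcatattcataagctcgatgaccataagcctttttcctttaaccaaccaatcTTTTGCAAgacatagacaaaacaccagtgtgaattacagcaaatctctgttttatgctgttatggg
The Klf15 window held the E-box 3 times, with first bases at -228, -172 and -3 from the start. Of 32851 promoter windows of this length, 7.15% held at least 1 E-box and 0.0883% held at least 3. The Zfp423 and Pparg windows held the C/EBP motif 2 times each, which 10.8% of all windows held at least 1 time and 0.941% at least 2 times. Of the 12 windows of these genes, no other held either motif. The marked motifs were taken from 8 searched over these 12 windows, so the shares above are not those of a single motif set in advance. No window of the 12 held the peroxisome proliferator response element, searched as AGGTCA repeated after 1 free base (in 0.0396% of all windows). None held the glucocorticoid response element, AGAACA and TGTTCT with 3 free bases between (0.00913%), or the EBF palindrome, TCCC and GGGA with 2 free bases between (0.904%). The TATA box TATAAA (13.6% of all windows), the GC box GGGCGGGG (17.6%) and the CACCC box (57.5%) were also searched on both strands. The TATA box was found in windows of Pparg, Cebpa and Cebpb, and the GC box in windows of Pparg, Klf15 and Rxra. A match describes letters in this window only. Reads at 3' ends do not separate transcripts that start at the different Pparg promoters.

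The targeted gene, Tnfrsf11a, was at 8.18, 10.3, 6.84 and 5.83 CPM in KO Treg, at 7.65, 8.89, 6.19 and 7.72 CPM in KO vehicle and at 4.66, 8.79, 10.6 and 8.74 CPM in WT vehicle. The groups overlapped, with 44 to 90 counts a library. The labels do not say which part of the gene is deleted, and a 3' read outside it checks nothing. Foxn1 had 0 counts in all 12 libraries. The regulatory T cell factor Foxp3 had 4 counts in KO vehicle 4, 1 in WT vehicle 4 and 0 in the rest, KO Treg included.

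Library totals were 6583263 to 8746946 counts in KO Treg, 8350348 to 9617503 in KO vehicle and 5551967 to 12972655 in WT vehicle. The adipocyte markers were present in force: all 9 were detected in every library, with Adiponectin (Adipoq) at 3881 to 5993 CPM and Fabp4 at 19027 to 36894 CPM. A pair of libraries, KO Treg 2 and KO vehicle 1, held the most placental marker transcripts, 272 and 105 CPM summed over 7 markers. The others summed to at most 31.9 CPM. Psg23, 1 of the 7, was at 12.7 CPM or more in every library. WT vehicle 4, at a sum of 31.2 CPM, had 1 of the 7 at 0, as did KO vehicle 1. Ucp1, the uncoupling protein of brown fat, stood at 779 CPM in KO vehicle 2 and at 216 CPM in KO vehicle 3, against 1968 CPM in WT vehicle 1, and was at most 47.4 CPM elsewhere. The titles fall into a lower and a higher number series: KO Treg and WT vehicle have 2 libraries in each, and KO vehicle has all 4 in the lower.

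None of the 9 transcription factors passed the threshold of 0.05 in any comparison by edgeR. Klf15 came closest, at 4.82 ± 2.15 CPM in KO vehicle, against 13.0 ± 3.60 CPM in WT vehicle (SD, n = 4 each), and it passed by DESeq2 alone. In KO vehicle against WT vehicle, 0 of 9 had an edgeR adjusted p below 0.05, where 0.279% of all genes did. For KO Treg against KO vehicle the count was 0 of 9 (0.00821% of all genes), and for KO Treg against WT vehicle 0 of 9 (0% of all genes). A single test of any difference among the 3 groups also called 0 of 9 (0.0329% of all genes). DESeq2 called 1 member, Klf15, in KO vehicle against WT vehicle (2.13% of all genes), 0 in KO Treg against KO vehicle (0.581%) and 0 in KO Treg against WT vehicle (0.00822%). At an unadjusted edgeR p under 0.05 there were 3 members in KO vehicle against WT vehicle (12.4% of all genes), 1 in KO Treg against KO vehicle (8.77%) and 0 in KO Treg against WT vehicle (2.87%). The groups did not overlap for 1 member in KO vehicle against WT vehicle (6.51% of all genes), for 0 in KO Treg against KO vehicle (5.04%) and for 0 in KO Treg against WT vehicle (1.63%). Any 2 of the 3 comparisons share the 4 libraries of a group, so their values are not independent.

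**Figure D1:**
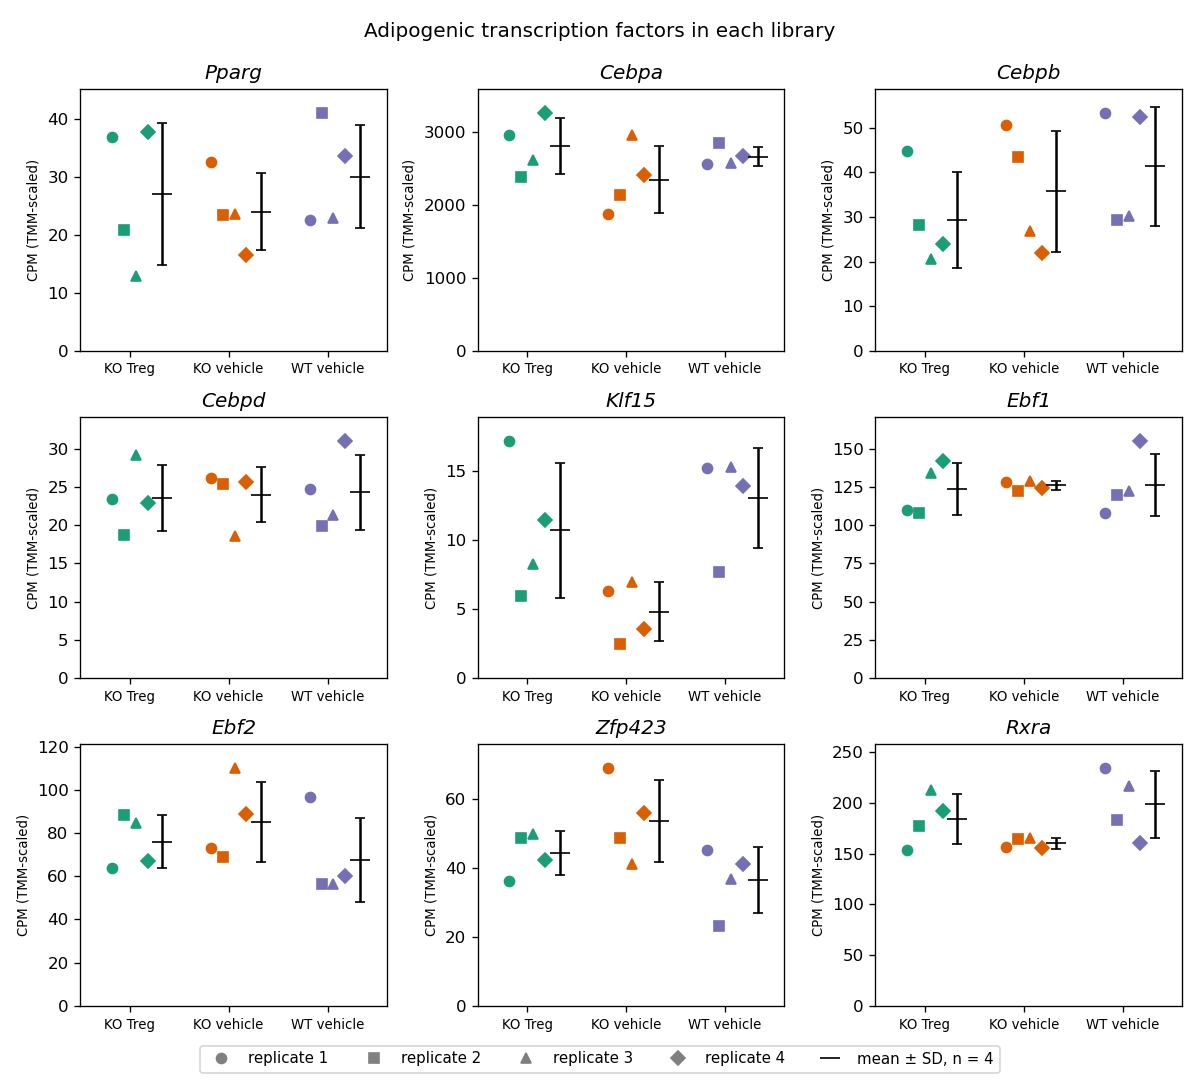
Expression of the 9 genes in each library, in CPM on TMM-scaled totals (vertical axis, from 0), by group (horizontal axis). Coloured symbols are single libraries, and black bars give the mean ± SD of 4. The KO vehicle points of Klf15, from 2.48 to 6.98 CPM, all lie below the WT vehicle points, from 7.72 to 15.3 CPM; in each other panel the KO vehicle and WT vehicle points overlap.

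Klf15 was the member that differed most. Its level was 6.28, 2.48, 6.98 and 3.55 CPM in KO vehicle 1 to 4, against 15.2, 7.72, 15.3 and 13.9 CPM in WT vehicle 1 to 4. Every KO vehicle library lay below every WT vehicle library, with KO vehicle 3 and WT vehicle 2 close to each other. The means were 4.82 ± 2.15 CPM in KO vehicle and 13.0 ± 3.60 CPM in WT vehicle (SD, n = 4 each). The log2 fold change was -1.44 ± 0.37 (SE), with a 95% interval of -2.22 to -0.65 and an unadjusted edgeR p of 0.00144, which became 0.115 after adjustment over all genes. DESeq2 gave an adjusted p of 0.00840 for the same difference (log2 fold change -1.45).

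In KO Treg, Klf15 was at 17.2, 5.94, 8.24 and 11.4 CPM in libraries 1 to 4. KO Treg 2 lay within the KO vehicle range and the other libraries above it. The mean was 10.7 ± 4.88 CPM in KO Treg, against 4.82 ± 2.15 CPM in KO vehicle (a difference of 1.16 ± 0.37 SE on the log2 scale, 95% interval 0.37 to 1.94, edgeR adjusted p = 0.375, n = 4). Set against 13.0 ± 3.60 CPM in WT vehicle, the difference was -0.28 ± 0.35 on the log2 scale (95% interval -1.03 to 0.47, edgeR adjusted p = 0.999992). A library held 52 to 145 counts of Klf15 in KO Treg, 24 to 62 in KO vehicle and 72 to 189 in WT vehicle. Counting error alone was 20.4% of the lowest of these counts and 7.27% of the highest.

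The difference of Klf15 between KO vehicle and WT vehicle was -1.60 on the log2 scale without the libraries with the most placental transcripts (edgeR adjusted p = 0.181). It was -1.33 without the 3 libraries with the most Ucp1 (edgeR adjusted p = 0.368). Both of these alternatives were chosen after the data were seen. Within the lower number series it was -1.27 (edgeR adjusted p = 0.405), and with the series as a covariate -1.40 (edgeR adjusted p = 0.193). The higher series holds no KO vehicle library. In whole tissue, fewer cells of a type and less RNA per cell cannot be told apart. The 9 adipocyte markers summed to 65524 to 84209 CPM in KO vehicle and 81587 to 98107 CPM in WT vehicle. Most of that list went the other way, with 6 of the 9 estimates above 0 (median log2 fold change 0.09). The other 3 were below 0, the lowest at -0.96. Among these 3 was Cfd, the adipsin gene (26178 ± 6079 CPM in KO vehicle and 46723 ± 7821 CPM in WT vehicle, SD, n = 4). The macrophage markers, of which 7 of 8 were found by symbol, summed to 813 to 1090 CPM in KO vehicle and 703 to 848 CPM in WT vehicle. The 7 smooth muscle markers summed to 269 to 746 CPM in KO vehicle and 207 to 1962 CPM in WT vehicle. The 11 preadipocyte and stromal markers summed to 2041 to 2441 CPM in KO vehicle and 2119 to 4108 CPM in WT vehicle. The 7 brown and beige markers summed to 61.4 to 2257 CPM in KO vehicle and 140 to 5760 CPM in WT vehicle. By gene, all 7 macrophage markers had estimates above 0 in KO vehicle against WT vehicle (median log2 fold change 0.19). All 7 smooth muscle markers (median -1.87) and all 7 brown and beige markers (median -0.88) were below 0. Of the preadipocyte and stromal markers, 4 were above 0 and 7 below (median -0.21). In each of these lists 0 passed by edgeR. No marker of these 5 lists was at 0 in any library. The part of these cell types in the Klf15 difference was not tested.

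Among the factors of precursors, Zfp423 had values of 68.8, 48.5, 41.0 and 55.7 CPM in KO vehicle 1 to 4, against 45.1, 23.3, 36.7 and 41.1 CPM in WT vehicle 1 to 4. The groups overlapped, since KO vehicle 3 lay below WT vehicle 1 and WT vehicle 4. The means were 53.5 ± 11.9 CPM in KO vehicle and 36.5 ± 9.49 CPM in WT vehicle (SD, n = 4; log2 fold change 0.55 ± 0.20 SE, 95% interval 0.13 to 0.97, edgeR adjusted p = 0.239). In KO Treg, Zfp423 was at 36.0, 48.8, 49.9 and 42.1 CPM, a mean of 44.2 ± 6.43 CPM that lay between those of the other groups. Neither KO Treg against KO vehicle (-0.28 ± 0.20, edgeR adjusted p = 0.757) nor KO Treg against WT vehicle (0.27 ± 0.20, edgeR adjusted p = 0.999992) passed. Over all 22 alternatives the difference of Zfp423 between KO vehicle and WT vehicle ran from 0.38 to 0.88 on the log2 scale. The largest value came without the 3 libraries with the most Ucp1 (edgeR adjusted p = 0.238), a setting chosen after the data were seen. That setting left out the lowest KO vehicle libraries, at 48.5 and 41.0 CPM, and the highest WT vehicle library, at 45.1 CPM.

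Ebf2, which marks brown and beige precursors as well as adipocyte precursors in general, was at 63.6, 88.3, 84.7 and 67.1 CPM in KO Treg 1 to 4. KO vehicle had 72.9, 68.9, 110.0 and 88.5 CPM, and WT vehicle had 96.6, 56.5, 56.4 and 60.2 CPM. The highest library of each vehicle group, KO vehicle 3 and WT vehicle 1, was among the 3 with the most Ucp1, while KO vehicle 2, which had 779 CPM of Ucp1, was the lowest of its group for Ebf2. KO vehicle against WT vehicle gave a log2 fold change of 0.33 ± 0.19 (edgeR adjusted p = 0.533, n = 4). The 95% interval ran from -0.08 to 0.74. KO Treg against KO vehicle gave -0.16 ± 0.19 (edgeR adjusted p = 0.884), and KO Treg against WT vehicle 0.17 ± 0.19 (edgeR adjusted p = 0.999992).

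Ebf1 had the lowest coefficient of variation of the 9 over the 12 libraries, 11.1%. It was at 109.9, 108, 134 and 142 CPM in KO Treg, at 128, 123, 129 and 124 CPM in KO vehicle, and at 108, 119.8, 123 and 155 CPM in WT vehicle. The KO vehicle libraries lay inside the range of the other groups. The means of Ebf1 were 124 ± 17.0 CPM in KO Treg, 126 ± 3.01 CPM in KO vehicle and 126 ± 20.2 CPM in WT vehicle (SD, n = 4 each). The 95% interval of KO vehicle against WT vehicle was -0.29 to 0.28 on the log2 scale, and that of KO Treg against KO vehicle -0.31 to 0.25. Both intervals leave out a change of 1.5-fold.

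The early factors Cebpb and Cebpd differed in how much they varied. Cebpb was at 44.7, 28.1, 20.5 and 24.0 CPM in KO Treg 1 to 4, at 50.6, 43.5, 26.9 and 21.9 CPM in KO vehicle and at 53.3, 29.4, 30.2 and 52.5 CPM in WT vehicle. Each group thus held libraries with high and low values. The means were 29.3 ± 10.7 CPM in KO Treg, 35.7 ± 13.5 CPM in KO vehicle and 41.3 ± 13.3 CPM in WT vehicle (SD, n = 4 each). For Cebpb the log2 fold change was -0.22 ± 0.31 in KO vehicle against WT vehicle, -0.28 ± 0.32 in KO Treg against KO vehicle and -0.50 ± 0.32 in KO Treg against WT vehicle (edgeR adjusted p = 0.844, 0.877 and 0.999992 in that order).

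Cebpd was at 23.5, 18.7, 29.2 and 22.9 CPM in KO Treg, at 26.1, 25.4, 18.6 and 25.7 CPM in KO vehicle and at 24.8, 19.9, 21.4 and 31.0 CPM in WT vehicle. KO vehicle 3 stood below the other libraries of its group. The means of Cebpd were 23.6 ± 4.31 CPM in KO Treg, 24.0 ± 3.60 CPM in KO vehicle and 24.3 ± 4.94 CPM in WT vehicle (SD, n = 4 each). The 95% interval of its log2 fold change was -0.39 to 0.35 in KO vehicle against WT vehicle and -0.40 to 0.35 in KO Treg against KO vehicle. The sign of these differences, and of those of Ebf1, turned with other settings.

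Of the factors that maintain the mature adipocyte, Cebpa had the most counts, 14345 to 31888 per library. Its reads alone made up 0.197% to 0.314% of a library. Cebpa was at 2959, 2389, 2621 and 3266 CPM in KO Treg, at 1881, 2137, 2962 and 2414 CPM in KO vehicle and at 2564, 2849, 2578 and 2674 CPM in WT vehicle. KO vehicle 1 and KO vehicle 2 were the lowest of all 12, and KO vehicle 3 was above every WT vehicle library. The means were 2809 ± 384 CPM in KO Treg, 2348 ± 463 CPM in KO vehicle and 2666 ± 131 CPM in WT vehicle (SD, n = 4 each). Its log2 fold change was -0.18 ± 0.15 in KO vehicle against WT vehicle (edgeR adjusted p = 0.680) and 0.26 ± 0.15 in KO Treg against KO vehicle (edgeR adjusted p = 0.669). The 95% intervals of Cebpa, -0.50 to 0.13 and -0.06 to 0.57, include 0. In KO Treg against WT vehicle it was 0.08 ± 0.15 (edgeR adjusted p = 0.999992).

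Pparg was at 36.9, 20.9, 12.9 and 37.8 CPM in KO Treg, at 32.6, 23.4, 23.5 and 16.6 CPM in KO vehicle and at 22.5, 41.0, 23.0 and 33.7 CPM in WT vehicle. KO Treg held the lowest library of all 12 and WT vehicle the highest, a 3.18-fold range. The means of Pparg were 27.1 ± 12.2 CPM in KO Treg, 24.0 ± 6.61 CPM in KO vehicle and 30.1 ± 8.96 CPM in WT vehicle (SD, n = 4 each). Its log2 fold change was -0.33 ± 0.32 in KO vehicle against WT vehicle, 0.18 ± 0.32 in KO Treg against KO vehicle and -0.15 ± 0.32 in KO Treg against WT vehicle (edgeR adjusted p = 0.745, 0.927 and 0.999992 in that order). The first of these has a 95% interval of -1.02 to 0.37, so a halving of Pparg lies just inside what these libraries allow.

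Rxra, the partner of PPARγ, was at 154, 177, 212 and 192 CPM in KO Treg, at 156, 164, 165 and 155 CPM in KO vehicle and at 234, 183, 217 and 159.9 CPM in WT vehicle. The KO vehicle libraries lay close together, and WT vehicle 4 fell among them while the other WT vehicle libraries were higher. The means were 184 ± 24.7 CPM in KO Treg, 160.1 ± 5.18 CPM in KO vehicle and 198 ± 33.3 CPM in WT vehicle (SD, n = 4 each). For Rxra, KO vehicle against WT vehicle gave a log2 fold change of -0.31 ± 0.14 (95% interval -0.60 to -0.02). Its unadjusted edgeR p was 0.0394 and its adjusted p 0.368. KO Treg against KO vehicle gave 0.20 ± 0.14 (edgeR adjusted p = 0.744), and KO Treg against WT vehicle -0.11 ± 0.14 (edgeR adjusted p = 0.999992).

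**Figure D2:**
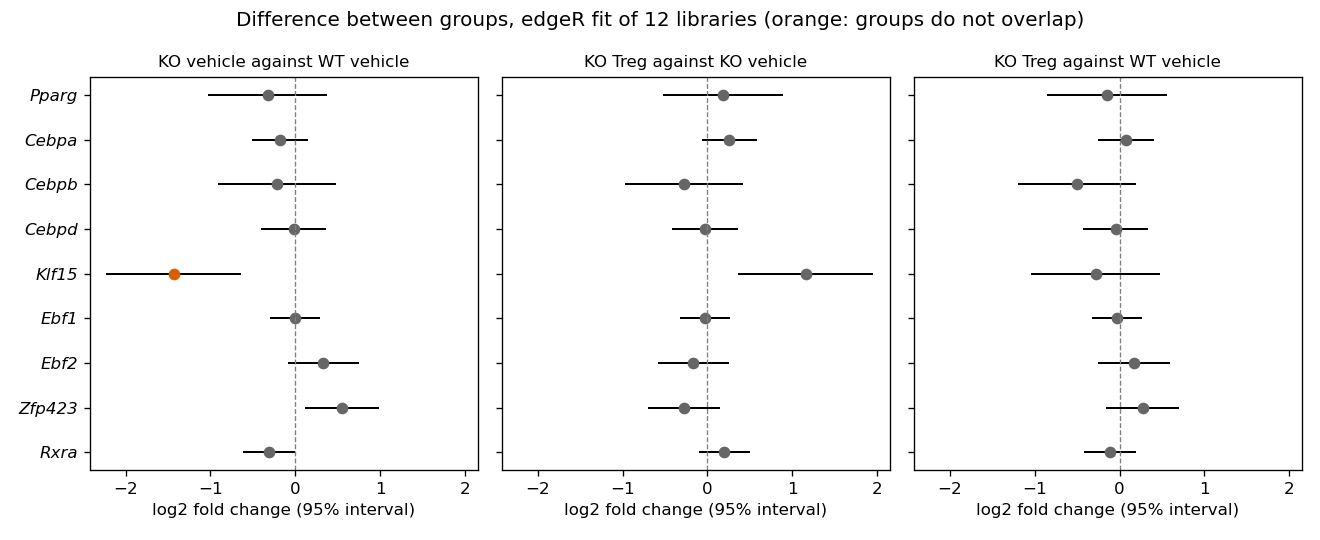
Log2 fold changes of the 9 genes (horizontal axis, log2 scale) in each comparison, from the edgeR fit of 12 libraries. Points are estimates, lines are 95% intervals, and orange marks groups that do not overlap. The interval of Klf15 lies below 0 in KO vehicle against WT vehicle (-2.22 to -0.65) and above 0 in KO Treg against KO vehicle (0.37 to 1.94).

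The median log2 fold change of the 9 members was -0.18 in KO vehicle against WT vehicle, where that of all tested genes was -0.0039. It was -0.03 in KO Treg against KO vehicle (-0.0018 over all genes) and -0.05 in KO Treg against WT vehicle (-0.0040 over all genes). In KO vehicle against WT vehicle, 2 members had an estimate above 0 and 7 below. Over all genes 5996 were above and 6179 below.

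The rest of the adipogenic network was read from lists of related genes. Among 18 inhibitors of adipogenesis, 17 were tested and 1 passed by edgeR, in KO vehicle against WT vehicle, and 0 passed in the other 2 comparisons. The shares of all genes, also for the lists below, were 0.279% in KO vehicle against WT vehicle and 0.00821% in KO Treg against KO vehicle. For KO Treg against WT vehicle the share was 0%. Vgll3, a cofactor of TEAD transcription factors that restrains adipocyte differentiation of mouse precursors, was at 17.7, 12.6, 11.9 and 12.9 CPM in KO vehicle, against 3.38, 5.04, 6.47 and 4.81 CPM in WT vehicle. All 4 KO vehicle libraries were above all 4 WT vehicle libraries. Vgll3 was higher in KO vehicle by 1.51 ± 0.25 on the log2 scale (edgeR adjusted p = 0.0216, n = 4). In KO Treg it was at 6.16, 11.8, 9.32 and 7.04 CPM, below every KO vehicle library, and the difference did not pass (-0.68 ± 0.23, edgeR adjusted p = 0.414). Leaving out any 1 of KO vehicle 1, 2 and 4 or of WT vehicle 2 and 3 took the adjusted p of Vgll3 above the threshold (edgeR adjusted p up to 0.0731). The adjusted p was also above it with the number series as a covariate (edgeR adjusted p = 0.0677), within the lower series (0.193), without the placental libraries (0.0660) and without the 3 libraries with the most Ucp1 (0.147), while the log2 fold change ran from 1.33 to 1.71 over all 22 alternatives.

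Other inhibitors did not pass. Trib2, a pseudokinase that promotes the breakdown of C/EBPα, was at 50.2 ± 13.8 CPM in KO vehicle and 33.9 ± 5.79 CPM in WT vehicle (log2 fold change 0.56, edgeR adjusted p = 0.175, n = 4). It was at 31.7 ± 3.04 CPM in KO Treg, with all 4 libraries below those of KO vehicle (log2 fold change -0.66, edgeR adjusted p = 0.270, n = 4). Ddit3, which encodes CHOP, a C/EBP family member that blocks the binding of its partners, was at 49.1 ± 2.49 CPM in KO Treg and 64.5 ± 8.69 CPM in KO vehicle (log2 fold change -0.39, edgeR adjusted p = 0.380, n = 4). Dlk1, the preadipocyte factor, was at 5.07 ± 2.30 CPM in KO Treg and 2.75 ± 0.484 CPM in KO vehicle (log2 fold change 0.88, edgeR adjusted p = 0.491, n = 4). Klf2, a Krüppel-like factor that represses Pparg, was at 69.6 ± 9.55 CPM in KO vehicle and 47.1 ± 14.4 CPM in WT vehicle (0.57, edgeR adjusted p = 0.192, n = 4). Nr2f2, a nuclear receptor, lay the other way, at 84.6 ± 21.2 CPM in KO vehicle and 113 ± 16.3 CPM in WT vehicle (-0.42, edgeR adjusted p = 0.311, n = 4), and it overlaps B130024G19Rik on the opposite strand. At an unadjusted edgeR p under 0.05, 3 of the 17 were higher and 1 lower in KO vehicle, where 12.4% of all genes passed in either direction. The list had a median log2 fold change of 0.14 in KO vehicle against WT vehicle and -0.05 in KO Treg against KO vehicle.

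Of 17 early inducers, all tested, 0 passed in any of the 3 comparisons by edgeR. In KO vehicle against WT vehicle, 4 had an unadjusted edgeR p under 0.05, with 2 in each direction (12.4% of all genes). Klf6, a Krüppel-like factor that represses the preadipocyte factor Dlk1, was at 245 ± 36.8 CPM in KO vehicle and 168 ± 11.4 CPM in WT vehicle (log2 fold change 0.54 ± 0.13, edgeR adjusted p = 0.0925, n = 4). Klf9 was at 279 ± 28.4 CPM in KO vehicle and 407 ± 72.3 CPM in WT vehicle (-0.54 ± 0.14, edgeR adjusted p = 0.117, n = 4). For both Klf6 and Klf9 the groups did not overlap. Of the 17, 1 was higher and 2 were lower in KO vehicle without overlap, where 6.51% of all genes did not overlap in either direction. Nr3c1, the glucocorticoid receptor, was at 183 ± 8.95 CPM in KO vehicle and 219 ± 12.7 CPM in WT vehicle without overlap (-0.26 ± 0.11, edgeR adjusted p = 0.312, n = 4).

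The list of 25 target genes of PPARγ and C/EBP in adipocytes, all tested, had 0 calls in each comparison by edgeR. In KO vehicle against WT vehicle, 6 had an unadjusted edgeR p under 0.05 and were higher, 2 were lower (12.4% of all genes in either direction), and the median was 0.07. The groups did not overlap for 7 of the 25 (6.51% of all genes). Cfd, which encodes the serine protease adipsin, was at 26178 ± 6079 CPM in KO vehicle and 46723 ± 7821 CPM in WT vehicle (log2 fold change -0.84 ± 0.18, edgeR adjusted p = 0.0657, n = 4). Aqp7, the glycerol channel of adipocytes, was at 44.4 ± 4.46 CPM in KO vehicle and 28.1 ± 7.16 CPM in WT vehicle (0.65 ± 0.18, edgeR adjusted p = 0.138, n = 4). Angptl4, an inhibitor of lipoprotein lipase, was at 960.3 ± 113 CPM in KO vehicle and 617 ± 82.8 CPM in WT vehicle (0.64 ± 0.19, edgeR adjusted p = 0.166, n = 4). Lep, which encodes the hormone leptin, was at 262 ± 85.8 CPM in KO vehicle and 56.5 ± 43.6 CPM in WT vehicle (2.21 ± 0.49, edgeR adjusted p = 0.102, n = 4). WT vehicle 2 stood at 121 CPM of Lep and the other WT vehicle libraries at 28.5 to 43.0 CPM, with a mean of 34.9 CPM without it. KO vehicle 2 stood at 134 CPM, close to WT vehicle 2, and the other KO vehicle libraries at 293 to 313 CPM. Without KO vehicle 2 the KO vehicle mean was 305 CPM. Each of these 4 genes had groups that did not overlap. In KO Treg against KO vehicle, Cfd was at 40577 ± 5757 CPM in KO Treg and 26178 ± 6079 CPM in KO vehicle (0.63 ± 0.18, edgeR adjusted p = 0.306, n = 4) and Aqp7 at 31.3 ± 5.47 CPM in KO Treg and 44.4 ± 4.46 CPM in KO vehicle (-0.51 ± 0.18, edgeR adjusted p = 0.424, n = 4). Pnpla2, the lipase that starts triglyceride breakdown, was at 2499 ± 142 CPM in KO Treg and 3150 ± 497 CPM in KO vehicle without overlap (-0.33 ± 0.14, edgeR adjusted p = 0.510, n = 4).

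Of the paralogues of the members, 7 of 9 were tested and 0 passed in any comparison by edgeR. At an unadjusted edgeR p under 0.05 there were also 0 in KO vehicle against WT vehicle (12.4% of all genes). The same held in KO Treg against KO vehicle (8.77%) and in KO Treg against WT vehicle (2.87%). Zfp521, a relative of Zfp423 that opposes it in precursors, was at 3.77 ± 0.748 CPM in KO vehicle and 5.81 ± 2.76 CPM in WT vehicle (log2 fold change -0.59 ± 0.31, edgeR adjusted p = 0.460, n = 4). Ppara, the PPAR of fatty acid oxidation, was at 25.8 ± 8.72 CPM in KO Treg, 45.1 ± 24.0 CPM in KO vehicle and 55.7 ± 57.4 CPM in WT vehicle. WT vehicle 1, the library with the most Ucp1, held 141 CPM of Ppara and the other WT vehicle libraries 18.2 to 38.3 CPM. Without it the WT vehicle mean was 27.3 CPM. KO vehicle 2 and KO vehicle 3, also among the 3 libraries with the most Ucp1, held 75.2 and 45.8 CPM of Ppara. KO vehicle 1 and KO vehicle 4 held 42.8 and 16.5 CPM. Without KO vehicle 2 the KO vehicle mean was 35.0 CPM. Among 14 coactivators and corepressors, all tested, 0 passed by edgeR in any comparison. At an unadjusted edgeR p under 0.05 there was 1 in KO Treg against WT vehicle (2.87% of all genes), Ppargc1b, a coactivator of mitochondrial genes, at 34.9 ± 6.11 CPM in KO Treg and 54.4 ± 16.9 CPM in WT vehicle (log2 fold change -0.64 ± 0.28, edgeR adjusted p = 0.999992, n = 4).

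**Figure D3:**
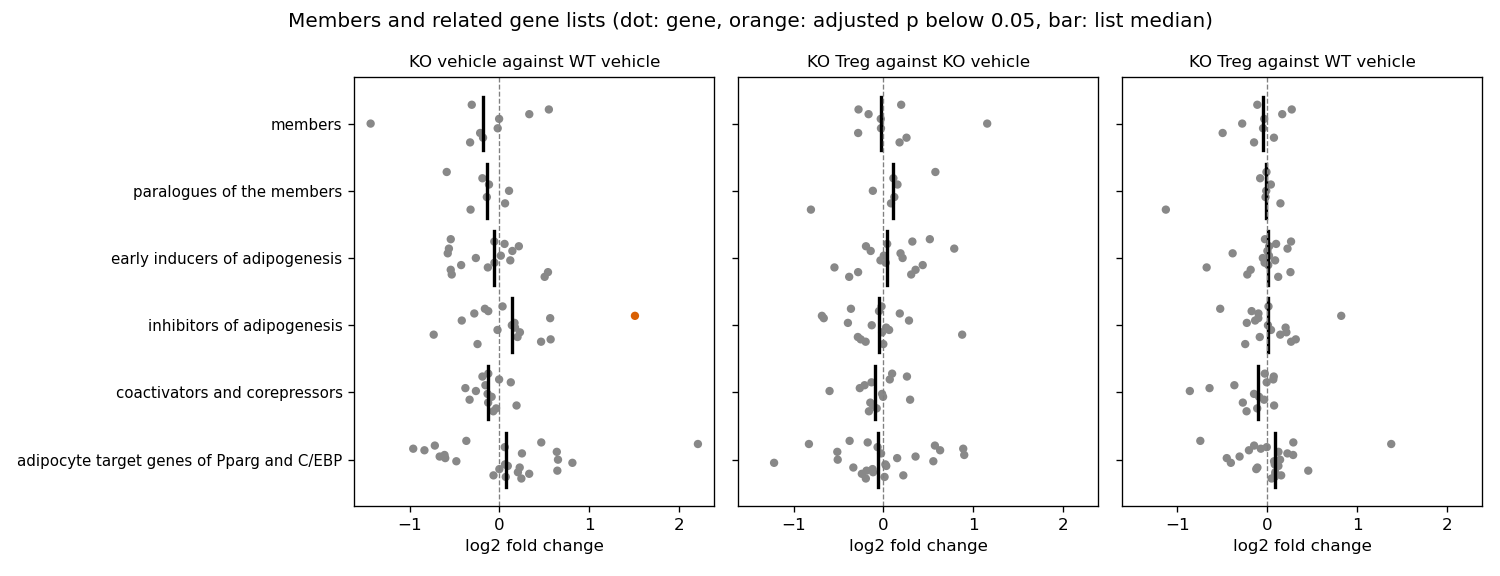
Log2 fold changes (horizontal axis, log2 scale) of the members and of 5 related gene lists in each comparison. Each dot is a tested gene, and bars are list medians. The only orange dot, a gene past the threshold, is Vgll3 at 1.51 in KO vehicle against WT vehicle, and the medians of the members lie at -0.18, -0.03 and -0.05 in the panels from left to right.

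Across libraries, pairs of members had r of both signs. With 12 libraries and 36 pairs, an r of moderate size can fail the threshold, so a failure does not show that 2 members vary apart. Of the 36 pairs, 0 had a Pearson r past the threshold of 0.05 after Benjamini-Hochberg adjustment (permutation test, 100000 resamples, two-sided), and 2 had an unadjusted p under 0.05. Of all 36, 18 had an r above 0. Cebpa and Zfp423 gave the largest r in size, -0.67 (Spearman's rho -0.70, permutation p = 0.0219 and 0.0143, adjusted p = 0.665 and 0.403, 12 libraries). Without the 2 libraries farthest from the median of Cebpa it was -0.61, within the 8 libraries of the lower number series -0.78, and on values centred within each group -0.66. The higher series, with 4 libraries, was too small for its own value. Pparg and Ebf2 gave -0.60 (rho -0.57, permutation p = 0.0383 and 0.0590, adjusted p = 0.665 and 0.403), which was -0.55 without the 2 libraries farthest from the median of Pparg and -0.75 in the lower series.

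Pparg and Cebpa, which are known to maintain each other, were not among these pairs. Pparg and Cebpa had an r of 0.27 (rho 0.53, permutation p = 0.388 and 0.0786, adjusted p = 0.821 and 0.403, 12 libraries), which was 0.32 without the 2 libraries farthest from the median of Pparg and 0.21 in the lower series. It was 0.13 without KO Treg 4 and 0.57 without KO vehicle 1. Cebpa and Klf15 had 0.55 (rho 0.55, permutation p = 0.0615 and 0.0686, adjusted p = 0.665 and 0.403), which was 0.65 without the 2 libraries farthest from the median of Cebpa, 0.55 in the lower series and 0.33 on values centred within each group. Cebpb and Cebpd had 0.31 (rho 0.22, permutation p = 0.316 and 0.497, adjusted p = 0.821 and 0.771), and 0.06 without the 2 libraries farthest from the median of Cebpb. The lower series gave 0.53 for this pair. It was 0.13 without WT vehicle 4 and 0.60 without KO Treg 3.

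**Figure D4:**
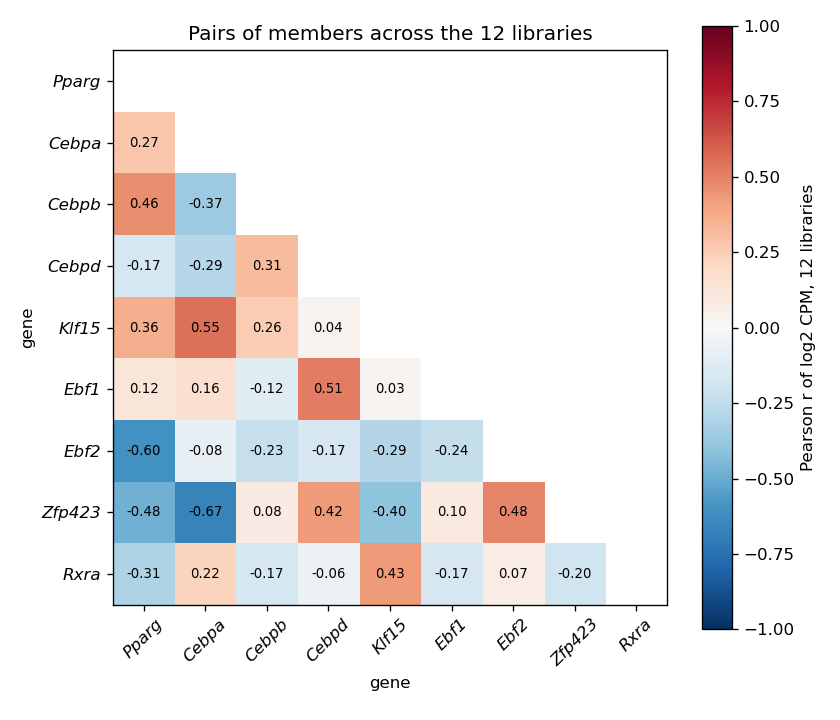
Pearson r of log2 CPM over the 12 libraries for the 36 pairs of members; both axes list the genes and the colour scale runs from -1 to 1. Values range from -0.67 for Cebpa with Zfp423 to 0.55 for Cebpa with Klf15, and red and blue cells are mixed throughout.

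The 12174 other tested genes were ranked by their likeness to each member, as a description over the 12 libraries and with no test. The genes most like Klf15 were Bckdha, Mpst and Slc25a29 (Pearson r of 0.94, 0.94 and 0.93). Those most like Pparg were Ubl3, Tob1 and Sdf2 (0.97, 0.91 and 0.91), and those most like Cebpa were Ddx59, Aven and Gpaa1 (0.93, 0.90 and 0.88). Zfp423 was most like Zfp532, Camk2n2 and Ypel5 (0.93, 0.93 and 0.89), and Ebf2 most like Exd1, Ltbp3 and Carhsp1 (0.94, 0.91 and 0.90). Cebpb was most like Slc16a1, Cd274 and Dcun1d3 (0.90, 0.89 and 0.88), and Rxra most like Ormdl3, Cutc and Gemin5 (0.92, 0.90 and 0.89). For Cebpd and Ebf1 the nearest were Tcf24 (0.86) and Trim3 (0.89). No member was among the 3 genes nearest to another member. With 12174 genes ranked over 12 libraries, high values of r also arise by chance. Neither the genes named nor this absence therefore shows how the members relate.

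The spread over the 12 libraries differed between members. The coefficient of variation of CPM was 51.8% for Klf15, 35.2% for Cebpb and 33.3% for Pparg. It was 25.2% for Zfp423, 22.6% for Ebf2 and between 11.1% and 16.4% for Cebpd, Rxra, Cebpa and Ebf1. Klf15 ranged 6.93-fold between its lowest library, KO vehicle 2, and its highest, KO Treg 1. Ebf1 ranged 1.44-fold. Counting error at the lowest count of each gene was at most 20.4%, that of Klf15, and 0.835% for Cebpa.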

How the data were processed

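Total RNA was extracted from gonadal fat with a DNase step and made into QuantSeq 3' libraries, per the labels' protocols. Each deposited table gives whole-number counts by gene symbol for 1 library, made by the authors. HTSeq 0.6.1, TopHat2 2.1.1, SAMtools 1.3.1 and BWA 0.7.12 and the mm10 build are named, per the submitters' processing notes, with roles, annotation and strand not given in the sources used here. A 3' read count needs no length correction, but no test compared the levels of different genes.

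Genes were kept by filterByExpr (edgeR 4.0.16, R 4.3.3), scaled by TMM and tested in 1 robust quasi-likelihood fit of the 3 groups with no covariate. P-values were adjusted by Benjamini-Hochberg over 12175 genes. A prior count of 2 went into log2 CPM. The SE is the size of a log2 fold change over the square root of F. DESeq2 1.42.0, other scalings and filters, fits of 2 groups, the number series, and leaving out each library were alternatives. Fits were checked on simulated data. Positions are from GENCODE M21. Replicate numbers were given in accession order and name libraries only. The labels do not say that libraries came from separate animals, so p-values set group differences against the spread between these libraries only. That spread exceeded sampling noise in every pair within a group (chi-square per degree of freedom 14.6 to 49.4), and its source is not stated. Counting errors cover counting only.

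The members and lists were chosen with earlier results of these data known. Named genes are the members, up to 4 genes of each list by smallest p in each comparison, and for each member the 3 genes of highest r, of which the text gives some.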

Additional observations from a re-analysis of the deposited data

Results flagged for a closer look

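Of 27 sets of 4 libraries (9 genes in 3 groups), 2 held a library far from the other 3 of its group by Dixon's test; chance flags about 1 in 20. Cebpd was at 18.6 CPM in KO vehicle 3, against 25.4 to 26.1 CPM in the rest of KO vehicle. Ebf2 was at 96.6 CPM in WT vehicle 1, against 56.4 to 60.2 CPM in the rest of WT vehicle. Both libraries are among the 3 with the most Ucp1 (216 CPM in KO vehicle 3 and 1968 CPM in WT vehicle 1). The remaining library of these 3, KO vehicle 2 (779 CPM of Ucp1), was not flagged. It had 25.4 CPM of Cebpd and 68.9 CPM of Ebf2, the lowest Ebf2 of its group. WT vehicle 1 had 24.8 CPM of Cebpd, within the range of its group. KO vehicle 3 had 110 CPM of Ebf2, the highest of its group. The part of brown or beige adipocytes in these values was not tested.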

How the results depend on the processing

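No paired analysis was possible because the replicate numbers follow accession order and the labels pair no animals. Of 594 alternative values of the members' log2 fold changes, 561 kept their direction and their side of the threshold, 1 newly passed (Klf15 by DESeq2, the 1 member that tool called) and 32 changed sign, none of them past the threshold. The sign changes were as follows. With the number series as a covariate, KO vehicle against WT vehicle gave 0.12 for Cebpd and 0.16 for Ebf1. The lower series alone gave 0.088 and 0.13 for them, 0.047 for Cebpb in KO Treg against KO vehicle, and, in KO Treg against WT vehicle, -0.0084 for Cebpa, 0.014 for Klf15 and -0.0019 for Ebf2. Without the placental libraries, KO Treg against KO vehicle gave 0.12 for Cebpd and 0.041 for Ebf1, and KO Treg against WT vehicle 0.049 and 0.023. Without the 3 Ucp1 libraries, Cebpd was at 0.087 in KO vehicle against WT vehicle. With 1 library left out, Cebpd ran from -0.11 to 0.12 (KO vehicle against WT vehicle), -0.12 to 0.072 (KO Treg against KO vehicle) and -0.16 to 0.093 (KO Treg against WT vehicle). Ebf1 ran from -0.091 to 0.11, -0.087 to 0.038 and -0.11 to 0.082 in the same order. In KO Treg against WT vehicle Pparg ran from -0.34 to 0.085 and Cebpa from -0.0039 to 0.15, and in KO Treg against KO vehicle Pparg ran from -0.0021 to 0.43.

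Over all genes, 34 passed in KO vehicle against WT vehicle, 1 in KO Treg against KO vehicle and 0 in KO Treg against WT vehicle. DESeq2 called 259, 68 and 1 in that order. The first count was 0 with the number series as a covariate, in the lower series alone and without the Ucp1 libraries, 3 without the placental libraries, and 1 to 125 with 1 library left out (68, 21 and 14 without KO Treg 1, 3 and 4, 1, 1, 13 and 2 without KO vehicle 1 to 4, and 12, 1 and 125 without WT vehicle 2 to 4). The second was 0 with RLE scaling, with at least 10 counts in all libraries, with the 2 groups alone, in all 4 settings just named and with any 1 library left out. The placental and Ucp1 alternatives were chosen after seeing the data. The cause was not tested. Klf15 had as few as 24 counts in a library, a counting error of 20.4%, and a coefficient of variation of 45.6% in KO Treg, 44.6% in KO vehicle and 27.6% in WT vehicle.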
